A study of Mus musculus with 10 samples.

Results

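The genes described here are 9 matrix metalloproteinase genes (Mmp2, Mmp3, Mmp8, Mmp9, Mmp10, Mmp12, Mmp13, Mmp14 and Mmp19) and Timp1. Timp1 encodes an inhibitor of enzymes of this family, not of every member alike. The genes described are 10 of the 19938 genes that had an array probe of their own. They were measured in subcutaneous tumors of MC38, a colon carcinoma line grown in C57BL/6 mice, with whole-transcript arrays of total tumor RNA. Into the 5 CpG1826 tumors (near 40 mm2 in area) went a dose of 50 µg CpG1826, a synthetic DNA rich in unmethylated CpG that is sensed by TLR9 in endosomes, in 50 µL of PBS, and tissue was collected after 6 h (mice 50, 58, 183, 189 and 595). The 5 PBS tumors were injected with PBS (mice 26, 29, 482, 592 and 661), and the labels give no schedule of their own for them. Tumors are called by the mouse number of the array title, 1 array per mouse. Both groups carry the same transplanted line, and the labels give neither the sex nor the age of the mice. Whole tumors hold carcinoma cells together with host stroma, leukocytes and vessels, so a level is that of the mixture. In such bulk RNA, fewer cells of a type and less RNA per cell cannot be told apart.

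The genes were selected on symbol among the probes annotated with exactly 1 gene, and the probe of a gene was to be chosen by the highest mean value over all 10 arrays. That mean was taken without regard to the groups, though it includes the CpG1826 arrays. It decided nothing for the 10 genes, since each had 1 such probe. The choice of these 10 genes was made with earlier results of these arrays known, so the number of them that changed is not independent evidence for the family. For that reason every other Mmp and Timp gene with a probe, 16 in all, is set beside them, whatever its values. Values are log2 array values as deposited, on which 1 unit is a 2-fold difference. Probes differ in how strongly they bind, so values are compared between tumors for the same gene and not between genes.

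Matrix metalloproteinases are zinc-dependent endopeptidases made as inactive proenzymes and opened by cleavage of their propeptide. Collagenases cut fibrillar collagen, gelatinases cut denatured collagen and basement membrane collagen, and stromelysins cut proteoglycans and laminin and also activate other proenzymes. Mmp2 and Mmp14 are commonly described as constitutive products of stromal cells, while Mmp3, Mmp9, Mmp10, Mmp12 and Mmp13 are induced by interleukin 1, TNF and related signals, in many cells through AP-1 sites close to the transcription start. Timp1 blocks many active metalloproteinases by binding their catalytic cleft, and is itself inducible by cytokines.

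The plot of the values by tumor gives all 10 genes. In the CpG1826 tumors 6 of them were higher than in the PBS tumors and 0 were lower (limma with Benjamini-Hochberg adjustment over all 19938 genes, adjusted p under 0.05), where 3.56% of all genes were called higher, 1.1% lower and 4.66% in either direction. The collagenases Mmp13 and Mmp8, the stromelysins Mmp3 and Mmp10, Mmp19 and the inhibitor Timp1 rose, by between 1.70-fold (Timp1) and 2.53-fold (Mmp13). The other 4, Mmp2, Mmp9, Mmp12 and Mmp14, did not pass. At an unadjusted p under 0.05, 8 of the 10 were higher and 0 lower. The share of all genes at that looser threshold is not given here, so counts at it have no background to be read against. At least a 2-fold rise was reached by Mmp13 and Mmp19, against 0.617% of all genes. The 6 genes that rose were also the 6 whose lowest CpG1826 value lay above the highest PBS value, which held for 4.35% of all genes. For 0 of them did all CpG1826 values lie below all PBS values, as for 2.42% of all genes, and 6.78% of all genes were apart in either direction. The median log2 fold change of the 10 genes was 0.80, against -0.02 over all genes.

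**Figure D1:**
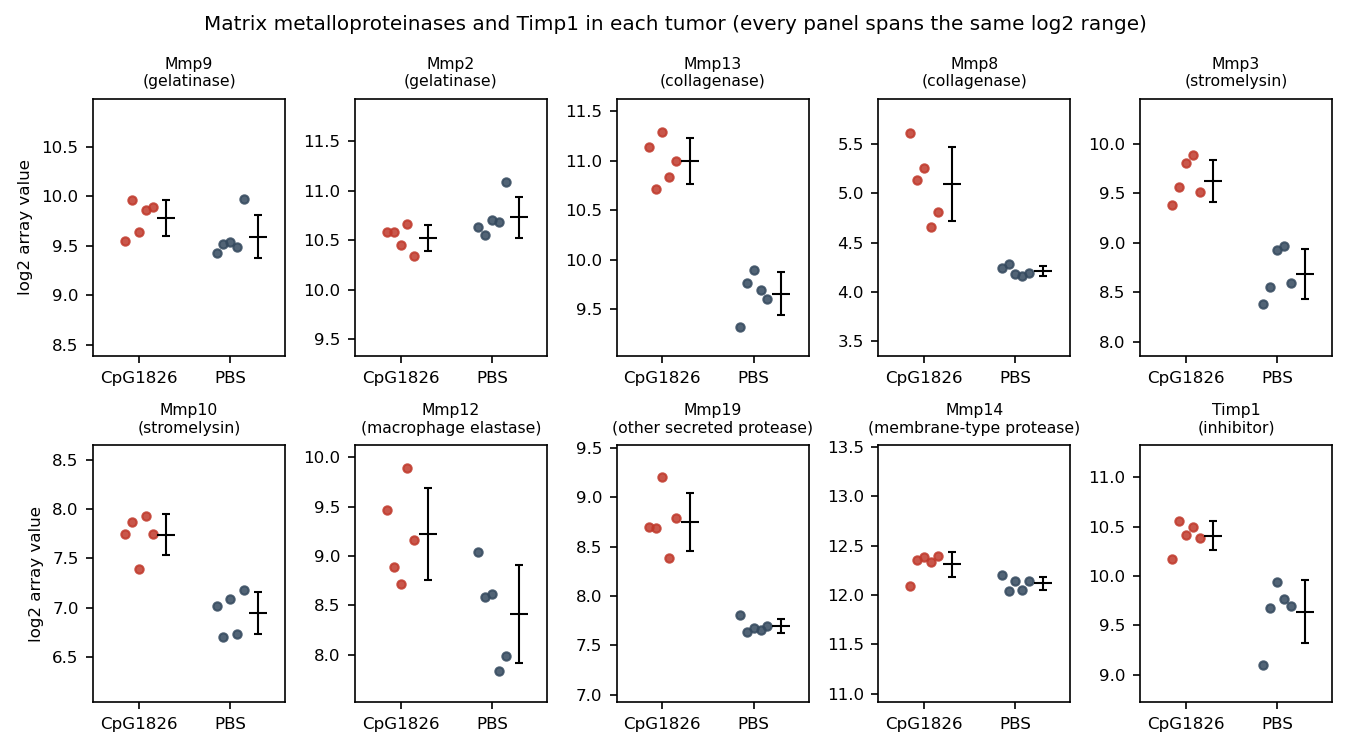
Log2 array value of each gene (vertical axis, every panel spanning the same number of units) in the 5 CpG1826 tumors (red) and the 5 PBS tumors (dark blue), 1 point per tumor, in the order of the mouse numbers, with the mean ± SD beside each group. The points of the groups are apart for Mmp13, Mmp8, Mmp3, Mmp10, Mmp19 and Timp1 and overlap for Mmp9, Mmp2, Mmp12 and Mmp14.

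Promoter sequences of the genes described are given as background, and a link to the rises was not tested. RefSeq promoter sequences (build GRCm38.p6) were matched for 7 of the 10 genes, with a pair of annotated starts for Mmp12. For Mmp2, Mmp9 and Mmp19 no promoter is shown. The 250 bases before each start were searched on both strands for the AP-1 element TGANTCA, the PEA3 (ETS family) element AGGAAG, the TATA box TATAAA and a κB-like element, GGGA and TTCC with any 2 bases between them. No match of one element overlapped a match of another in the promoters of these genes. The 120 bases that end just before the annotated start follow 5′ to 3′, all on the plus strand, with TGANTCA in capitals.
Mmp13: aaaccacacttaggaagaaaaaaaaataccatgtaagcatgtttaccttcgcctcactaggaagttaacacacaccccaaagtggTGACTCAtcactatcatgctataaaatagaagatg
Mmp3: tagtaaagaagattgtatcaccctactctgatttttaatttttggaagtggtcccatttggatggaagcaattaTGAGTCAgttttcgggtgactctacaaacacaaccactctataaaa
Mmp10: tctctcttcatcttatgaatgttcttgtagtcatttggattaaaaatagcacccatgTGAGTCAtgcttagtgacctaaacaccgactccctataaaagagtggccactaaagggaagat
Mmp12, downstream start: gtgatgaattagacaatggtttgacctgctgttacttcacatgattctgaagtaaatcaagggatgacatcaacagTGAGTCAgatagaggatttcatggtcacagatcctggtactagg
Mmp12, upstream start: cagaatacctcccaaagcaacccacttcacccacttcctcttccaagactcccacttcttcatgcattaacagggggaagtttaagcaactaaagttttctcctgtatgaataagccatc
Mmp8: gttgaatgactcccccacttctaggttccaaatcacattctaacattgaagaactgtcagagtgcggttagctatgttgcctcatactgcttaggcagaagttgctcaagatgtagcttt
Timp1: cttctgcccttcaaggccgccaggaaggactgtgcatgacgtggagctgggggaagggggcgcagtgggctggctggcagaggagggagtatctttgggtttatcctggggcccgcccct
Mmp14: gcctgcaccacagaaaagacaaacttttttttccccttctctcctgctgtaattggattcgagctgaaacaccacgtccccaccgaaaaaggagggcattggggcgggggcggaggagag
These stretches lie at chr9:7272394-7272513, chr9:7445702-7445821, chr9:7502222-7502341, chr9:7347254-7347373, chr9:7344277-7344396, chr9:7558309-7558428, chrX:20870046-20870165 and chr14:54431478-54431597, in the order shown.

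The element TGANTCA was found before the starts of Mmp13, Mmp3 and Mmp10 and before the downstream start of Mmp12. Its first base lay 35 bases before the start in Mmp13, 46 in Mmp3, 63 in Mmp10 and 44 in Mmp12. Of the 8 promoters of these genes 4 held it, against 6.75% of 32851 annotated promoters searched over the same length. The 4 lie close together on chromosome 9, and promoters of the other Mmp genes there were not read singly. TATAAA was found in the promoters of Mmp13, Mmp3 and Mmp10, and in 12.4% of all promoters. AGGAAG was found in 6 of the 8, those of Mmp13, Mmp3, Mmp8, Mmp14 and Timp1 and the upstream one of Mmp12, and in 29.5% of all. The κB-like element was found in 0 of the 8, and in 1.21% of all. Mmp12, which did not pass, held TGANTCA, while Mmp8 and Timp1, which rose, and Mmp14, which did not pass, held none in this window. A match describes these letters and is not evidence that a factor was bound.

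The collagenases cut triple-helical collagen. Mmp13, the interstitial collagenase of rodents and a product of fibroblasts, chondrocytes and macrophages, had values of 11.14, 10.71, 11.29, 10.84 and 11.00 in CpG1826 mice 50, 58, 183, 189 and 595. In PBS mice 26, 29, 482, 592 and 661 they were 9.32, 9.77, 9.89, 9.70 and 9.60. Every CpG1826 tumor lay above every PBS tumor, and mouse 26 was the lowest of all. The means were 11.00 ± 0.23 and 9.66 ± 0.22 (CpG1826 and PBS, SD, n = 5 each), a 2.53-fold rise (95% confidence interval 2.11 to 3.04, limma adjusted p = 2.85e-05) that was the 67th largest of all genes.

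Mmp8, the collagenase that neutrophils store in their granules, had values of 5.61, 5.14, 5.26, 4.65 and 4.81 in CpG1826 mice 50, 58, 183, 189 and 595. In PBS mice 26, 29, 482, 592 and 661 the values were 4.24, 4.28, 4.18, 4.17 and 4.19. The PBS tumors were nearly alike (SD 0.05), whereas the CpG1826 tumors spread widely (SD 0.38) with mouse 50 the highest, and the groups did not overlap. The rise was 1.84-fold (95% confidence interval 1.49 to 2.28, limma adjusted p = 0.00226). Mmp8 was a dim probe, with a mean over all tumors of 4.65, below the lower quartile of 5.25 over all genes, and no detection calls were used here.

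Because Mmp8 belongs to neutrophils, their markers were read beside it. Of 11 measured neutrophil markers 5 rose and 0 fell, against 3.56% and 1.1% of all genes. The calprotectin subunits S100a8 and S100a9 rose 4.37-fold (95% confidence interval 3.11 to 6.13) and 2.74-fold (2.09 to 3.58). The chemokine receptor Cxcr2 rose 3.11-fold (2.36 to 4.10), the G-CSF receptor Csf3r 2.14-fold (1.76 to 2.60) and Retnlg 1.52-fold (1.23 to 1.88). Ly6g, Ngp, Camp, Ltf and Mpo, genes of the neutrophil surface and of its granules, differed by 0.00, 0.05, -0.07, -0.03 and 0.02 log2 units and did not pass. The probes of Ly6g, Ngp, Ltf and Mpo, like that of Mmp8, had means below the lower quartile over all genes. A change of these transcripts could be missed. The probe of Retnlg, which rose, was also below that quartile. Retnlg no longer passed when CpG1826 mouse 183 or PBS mouse 26, 29 or 482 was left out singly (limma adjusted p up to 0.0739). The summed log2 value of the 11 markers was 63.7 to 68.5 in CpG1826 tumors and 58.8 to 61.0 in PBS tumors. CpG1826 mouse 50, with the highest Mmp8, also had the highest mean of the neutrophil list (6.22, against 5.79 to 6.14 in the other CpG1826 tumors). The part of neutrophil number in the Mmp8 result was not tested.

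The stromelysins degrade proteoglycans and activate other proenzymes. For Mmp3 (stromelysin 1) CpG1826 mice 50, 58, 183, 189 and 595 had 9.38, 9.56, 9.81, 9.88 and 9.51. Among PBS mice 26, 29, 482, 592 and 661 the values were 8.38, 8.55, 8.93, 8.97 and 8.59. All CpG1826 tumors were above all PBS tumors, with PBS mice 482 and 592 the nearest. The means were 9.63 ± 0.21 and 8.68 ± 0.25 (CpG1826 and PBS, SD, n = 5 each), a rise of 1.93-fold (95% confidence interval 1.59 to 2.33, limma adjusted p = 0.000524).

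Mmp10 (stromelysin 2), a close relative of Mmp3 that is made by epithelial cells and macrophages, had values of 7.75, 7.87, 7.40, 7.93 and 7.75 in CpG1826 mice 50, 58, 183, 189 and 595. PBS mice 26, 29, 482, 592 and 661 had 7.02, 6.71, 7.09, 6.74 and 7.18. Mouse 183 was the lowest CpG1826 tumor for Mmp10, although its Mmp3 value was the second highest, and the groups did not overlap. The rise was 1.73-fold (95% confidence interval 1.45 to 2.06, limma adjusted p = 0.00112).

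Mmp19, a secreted metalloproteinase with basement membrane proteins among its substrates, was the other gene with at least a 2-fold rise. CpG1826 mice 50, 58, 183, 189 and 595 had 8.70, 8.69, 9.20, 8.38 and 8.79. Among PBS mice 26, 29, 482, 592 and 661 the values were 7.81, 7.64, 7.68, 7.66 and 7.70. The PBS tumors varied little (SD 0.07), the CpG1826 tumors more (SD 0.29), and mouse 183 was highest for Mmp19 as it was for Mmp13. The rise was 2.08-fold (95% confidence interval 1.74 to 2.48, limma adjusted p = 0.000119).

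Mmp12, the elastase of macrophages, had the largest SDs of the 10 genes in both groups. CpG1826 mice 50, 58, 183, 189 and 595 had 9.46, 8.89, 8.72, 9.89 and 9.16. PBS mice 26, 29, 482, 592 and 661 had 9.04, 8.58, 8.61, 7.84 and 7.99. The groups overlapped, since PBS mouse 26 lay above CpG1826 mice 58 and 183. The means of 9.22 ± 0.47 and 8.41 ± 0.50 (CpG1826 and PBS, SD, n = 5 each) differed by 0.81 ± 0.24 log2 units (SE), an estimate of 1.76-fold (95% confidence interval 1.22 to 2.52) that did not pass (limma adjusted p = 0.0893). Without PBS mouse 26 the difference was 0.97 and passed (limma adjusted p = 0.0464, the lowest with 1 mouse removed, the highest being 0.199). The interval for Mmp12 covers the estimates of Mmp3, Mmp8, Mmp10, Mmp19 and Timp1, so its lack of a call does not show a smaller change.

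Of 13 measured monocyte and macrophage markers, 3 rose and 3 fell, against 3.56% and 1.1% of all genes. The median log2 fold change was -0.09. Of the general macrophage genes, Adgre1 and Cd68 differed by 0.03 and -0.02 and did not pass, whereas Csf1r, the receptor of the macrophage growth factor CSF1, averaged 10.02 ± 0.18 in CpG1826 tumors and 10.48 ± 0.14 in PBS tumors (SD, n = 5 each; limma adjusted p = 0.0119), with every CpG1826 tumor below every PBS tumor. The LPS co-receptor Cd14 and the scavenger receptor Msr1 rose by 2.11 and 0.66 and the fractalkine receptor Cx3cr1 fell by 1.21 on the log2 scale. The chemokine receptor Ccr2 fell by 0.61, a call that was kept without CpG1826 mouse 595 and lost without any other mouse (limma adjusted p = 0.0158 to 0.127). The summed log2 value of the list was 126.6 to 131.2 in CpG1826 tumors and 125.3 to 130.3 in PBS tumors.

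The gelatinases did not pass in either direction. Mmp9, which neutrophils and macrophages release, had values of 9.55, 9.97, 9.64, 9.86 and 9.89 in CpG1826 mice 50, 58, 183, 189 and 595. Among PBS mice 26, 29, 482, 592 and 661 the values were 9.43, 9.52, 9.54, 9.49 and 9.97. Of the PBS tumors 4 lay below the lowest CpG1826 tumor, and mouse 661 reached the highest one. The difference was 0.19 ± 0.11 log2 units (SE, 95% confidence interval -0.05 to 0.43, limma adjusted p = 0.462), and 0.29 without PBS mouse 661. The upper end of the interval is a rise of 1.35-fold for this probe.

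Mmp2, the constitutive gelatinase of fibroblasts, had values of 10.59, 10.58, 10.45, 10.67 and 10.34 in CpG1826 mice 50, 58, 183, 189 and 595, against 10.63, 10.56, 10.70, 10.69 and 11.09 in PBS mice 26, 29, 482, 592 and 661. The groups overlapped, and mouse 661 was again the highest PBS tumor. The difference was -0.21 ± 0.10 (SE, -0.42 to 0.01, limma adjusted p = 0.345), and -0.12 without PBS mouse 661.

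Mmp14 encodes the membrane-type enzyme MT1-MMP, which cuts collagen at the cell surface and activates proMmp2 in a complex with Timp2. CpG1826 mice 50, 58, 183, 189 and 595 had 12.09, 12.35, 12.38, 12.33 and 12.40. PBS mice 26, 29, 482, 592 and 661 had 12.20, 12.04, 12.14, 12.05 and 12.15. CpG1826 mouse 50 lay among the PBS tumors and the other 4 above all of them. The difference was 0.19 ± 0.07 log2 units (SE, 0.03 to 0.35, limma adjusted p = 0.203), and without CpG1826 mouse 50 it was 0.25 (limma adjusted p = 0.0505). That tumor also had the lowest mean of the fibroblast list, 9.44, against 9.83 to 9.97 in the other CpG1826 tumors and 9.80 to 9.89 in the PBS tumors. Of the 11 fibroblast markers 0 rose and 0 fell in the limma test, against 3.56% and 1.1% of all genes. At an unadjusted p under 0.05 there were 0 higher and 2 lower. The summed log2 values were 103.9 to 109.7 in CpG1826 tumors and 107.8 to 108.8 in PBS tumors. The part of fibroblast content in the Mmp14 value of CpG1826 mouse 50 was not tested.

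Timp1, the inhibitor, had values of 10.17, 10.55, 10.42, 10.50 and 10.38 in CpG1826 mice 50, 58, 183, 189 and 595. Among PBS mice 26, 29, 482, 592 and 661 the values were 9.10, 9.68, 9.94, 9.77 and 9.69. The groups did not overlap, and mouse 26 was the lowest PBS tumor, as it was for Mmp13 and Mmp3. The means were 10.40 ± 0.15 and 9.64 ± 0.32 (CpG1826 and PBS, SD, n = 5 each), a 1.70-fold rise (95% confidence interval 1.40 to 2.08, limma adjusted p = 0.00384). Without PBS mouse 26 the rise was 0.63 log2 units, against 0.77 with it, and it passed (largest limma adjusted p over the fits that leave out 1 mouse 0.0109).

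Pairs of genes set by role were compared within each tumor by the difference of their log2 values, by exact permutation over the 10 tumors (a two-sided test over every assignment, with 0.00794 the smallest possible p) adjusted over the 6 pairs. The pairs, like the genes, were set with earlier results known, so these p-values are not independent evidence. Each places a difference among all assignments of the tumors to the groups, and does not measure its size. The plot of paired genes shows these differences. Timp1 rose more than Timp2, which is the constitutive inhibitor of the family, by 0.90 ± 0.16 log2 units (SE), with 5 of 5 CpG1826 tumors above every PBS tumor (exact permutation adjusted p = 0.0238). Timp1 also rose more than Mmp9, whose proenzyme it binds, by 0.58 ± 0.16 in 5 of 5 tumors (exact permutation adjusted p = 0.0238). The gelatinases moved apart, Mmp9 relative to Mmp2 by 0.40 ± 0.10, in 4 of 5 tumors above every PBS tumor (exact permutation adjusted p = 0.0238). So did Mmp14 and the proenzyme it activates, Mmp2, by 0.40 ± 0.13, in 4 of 5 tumors (exact permutation adjusted p = 0.0238). None of Mmp9, Mmp2 and Mmp14 passed on its own.

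The collagenases Mmp13 and Mmp8 differed in their changes by 0.46 ± 0.18, which did not pass (exact permutation adjusted p = 0.0571). The Mmp8 probe is dim, with PBS values of 4.21 ± 0.05 (SD, n = 5), so its change may be understated and this difference overstated. This difference passed without CpG1826 mouse 50 (0.55), CpG1826 mouse 58 (0.54) or PBS mouse 482 (0.53), with exact permutation adjusted p = 0.0317 to 0.114 over all fits that leave out 1 mouse. For the stromelysins Mmp3 and Mmp10 the difference was 0.16 ± 0.21 (exact permutation adjusted p = 0.500), and mouse 183, with high Mmp3 and low Mmp10, stood at 0.68.

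**Figure D2:**
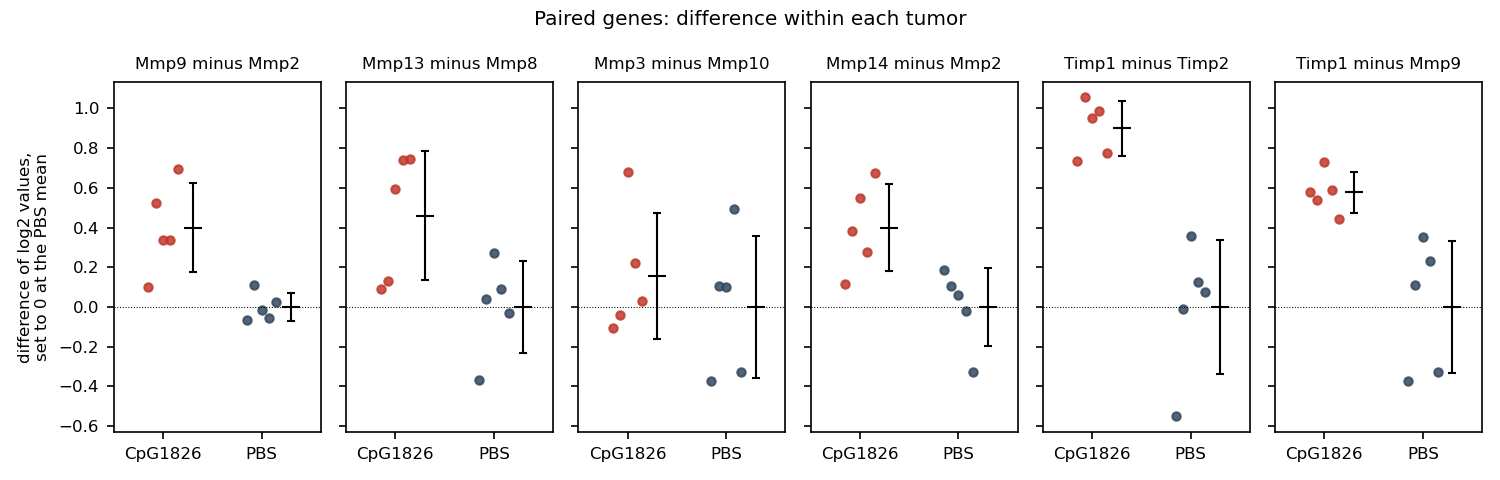
Difference of the log2 values of 2 genes within each tumor (vertical axis, set to 0 at the mean of the PBS tumors) for 6 pairs, with CpG1826 tumors in red, PBS tumors in dark blue and the mean ± SD beside each group (n = 5). The CpG1826 points lie above all PBS points for Timp1 minus Timp2 and Timp1 minus Mmp9, and overlap with them for Mmp3 minus Mmp10.

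Among the 16 further Mmp and Timp genes 2 rose and 0 fell (limma adjusted p under 0.05 over all genes), against 3.56% and 1.1% of all genes, with a median log2 fold change of -0.04. Mmp25, a membrane-anchored metalloproteinase of leukocytes, had values of 7.70, 7.81, 8.29, 7.86 and 7.93 in CpG1826 mice 50, 58, 183, 189 and 595, against 7.09, 7.38, 7.36, 7.41 and 7.20 in PBS mice 26, 29, 482, 592 and 661. All CpG1826 tumors were higher, and the rise was 1.55-fold (95% confidence interval 1.32 to 1.81, limma adjusted p = 0.00289). Timp3, the inhibitor that stays bound to the matrix, had 8.45, 8.45, 8.64, 8.50 and 8.43 in the CpG1826 tumors, against 7.67, 7.96, 8.24, 8.29 and 8.10 in the PBS tumors, in the same order of mice. Its rise was 1.36-fold (1.16 to 1.59, limma adjusted p = 0.0288). Timp3 no longer passed when CpG1826 mouse 50, 183 or 189 or PBS mouse 29 or 661 was left out singly (limma adjusted p between 0.0180 and 0.0790 with 1 mouse removed), at log2 fold changes between 0.346 and 0.501.

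Of the other 14, the 3 with the highest values were Timp2, Mmp11 and Mmp16. Timp2 averaged 11.38 ± 0.06 in CpG1826 tumors and 11.51 ± 0.04 in PBS tumors (SD, n = 5 each), a difference of -0.13 ± 0.06 (SE, limma adjusted p = 0.297). Mmp11, a fibroblast enzyme known as stromelysin 3, differed by -0.03 ± 0.08, and Mmp16, another membrane-type enzyme, by -0.23 ± 0.09 (limma adjusted p = 0.907 and 0.197). Over all 26 Mmp and Timp genes, taken by symbol alone, 8 rose, 0 fell and 18 did not pass, with a median of 0.04. One more family member, Mmp15, was not analysed here. In the plot of all 26 changes the 7 highest estimates belong to the 10 genes described, which were chosen with such results known.

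**Figure D3:**
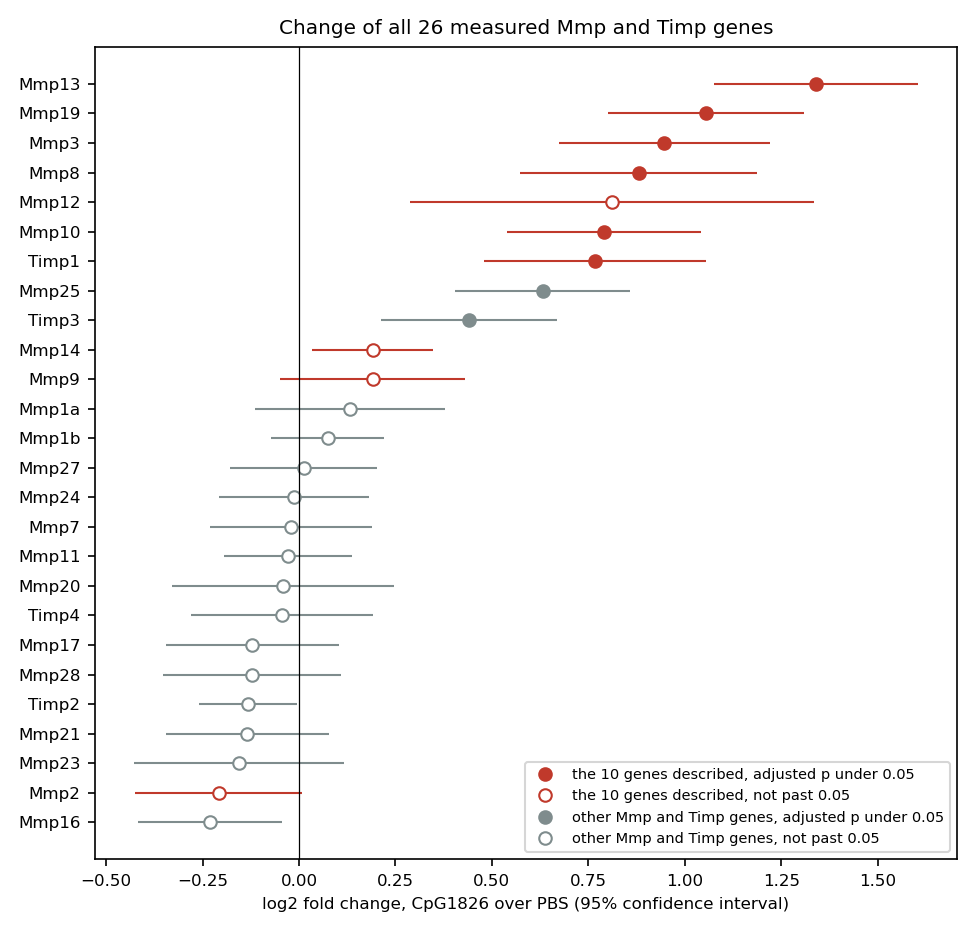
Log2 fold change of CpG1826 over PBS tumors (horizontal axis) for all 26 measured Mmp and Timp genes, ordered by size, as points with 95% confidence intervals from the limma fit (n = 5 tumors per group). Filled points passed an adjusted p of 0.05 and open points did not; the values run from -0.23 (Mmp16) to 1.34 (Mmp13).

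Position is a property the choice of probes did not use. In the RefSeq gene table for GRCm38.p6, used for order only, 10 Mmp genes with a probe lie in a stretch of chromosome 9. Any genes of other families inside it were left out. Of the 10 Mmp genes 5 are among the genes described. In chromosome order the 10 are Mmp13, Mmp12, Mmp1b, Mmp3, Mmp1a, Mmp10, Mmp8, Mmp27, Mmp20 and Mmp7. Of the 10 genes 4 rose, 0 fell and 6 did not pass, where 3.56% of all genes rose and 1.1% fell. The 4 that rose, Mmp13, Mmp3, Mmp10 and Mmp8, are all among the genes chosen with earlier results known, and of the 5 other cluster genes 0 rose. Mmp1b and Mmp1a, rodent collagenases that lie on either side of Mmp3, differed by 0.07 ± 0.07 and 0.13 ± 0.11 log2 units (SE, limma adjusted p = 0.674 and 0.650). Their probes had low values, 3.17 ± 0.09 in CpG1826 tumors and 3.09 ± 0.08 in PBS tumors for Mmp1b, and 3.71 ± 0.17 in CpG1826 tumors and 3.58 ± 0.24 in PBS tumors for Mmp1a (SD, n = 5 each). A change of a transcript near the lower end of the array could be missed.

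Beyond Mmp8, Mmp27, Mmp20 (the enamel protease) and Mmp7 (matrilysin, an epithelial enzyme) differed by 0.01 ± 0.09, -0.04 ± 0.13 and -0.02 ± 0.10 (SE), and their means lay between 4.51 and 5.01 in CpG1826 tumors and between 4.50 and 5.03 in PBS tumors. The nearest neighbours with a probe outside the cluster were Dync2h1 and Dcun1d5 on the side of Mmp13, at 0.07 and -0.05, and Tmem123 and Birc2 on the side of Mmp7, at 0.28 and 0.18. None of these 4 passed (limma adjusted p = 0.173 to 0.797).

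**Figure D4:**
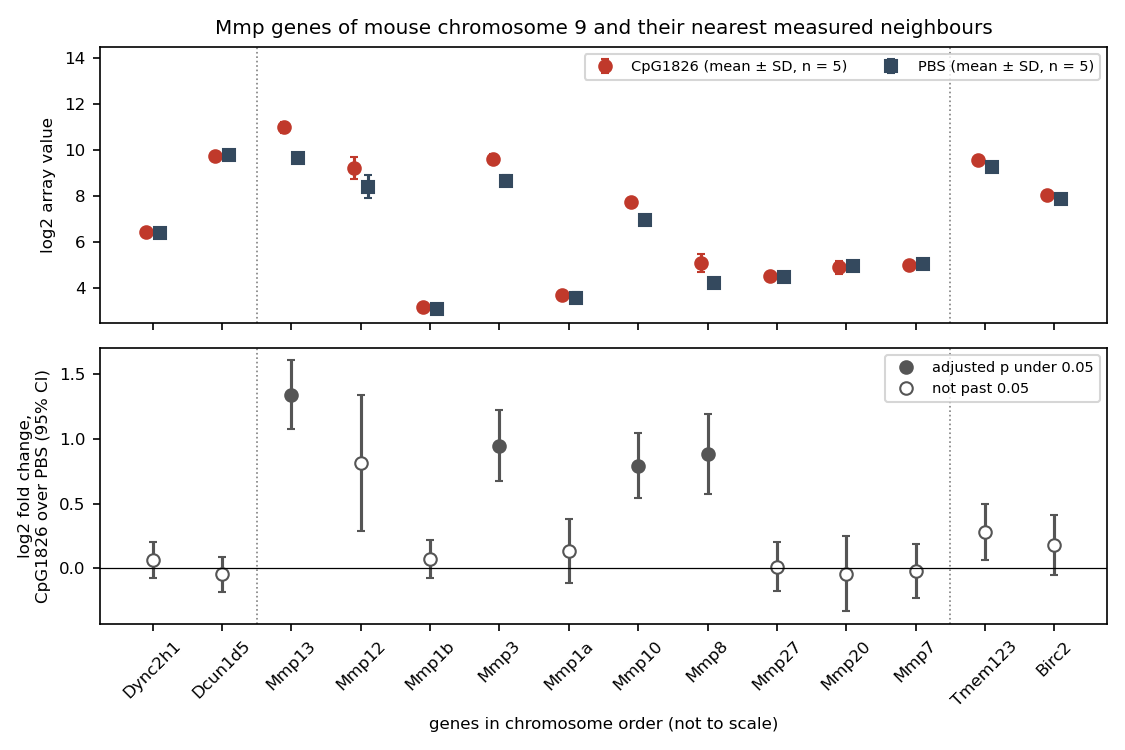
Mean ± SD of the log2 array value in CpG1826 (red) and PBS (dark blue) tumors (upper panel, n = 5 each) and log2 fold change with 95% confidence interval (lower panel) for the 10 Mmp genes of chromosome 9 in their order, with 2 measured neighbours on each side of the dotted lines. Mmp13, Mmp3, Mmp10 and Mmp8 are filled (adjusted p under 0.05), and the genes between and beyond them are open; values are to be compared within a gene.

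The genes with the most similar profiles were sought by the mean absolute difference of centred log2 values over the 10 arrays, which share the 2 groups. For Mmp13 the 5 nearest of all genes were Tnip1 (0.101), Ptgs2 (0.115), Socs3 (0.117), Cd40 (0.127) and Tnfaip3 (0.142). Their log2 fold changes were 1.20, 1.17, 1.34, 1.27 and 1.31, against 1.34 for Mmp13. That of Socs3 ranged from 1.04 to 1.35 under the processing alternatives that kept all mice. Ptgs2 is the inducible cyclooxygenase, Socs3 an inhibitor of cytokine signals and Tnfaip3 the NF-κB inhibitor A20. Among the other 9 genes described, Mmp19 came nearest to Mmp13, at rank 28 (0.189).

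For Timp1 the nearest were Osmr (0.0929), which encodes the oncostatin M receptor, Helz2 (0.110), Ifit1 (0.119), Trim30d (0.120) and Casp4 (0.123). Their log2 fold changes were 0.70, 0.64, 0.82, 0.58 and 0.88, against 0.77 for Timp1. Ifit1 and Helz2 are interferon-stimulated genes, and Casp4 the sensor of intracellular LPS. Of the metalloproteinases described, Mmp3 was nearest to Timp1, at rank 24 (0.156), and Mmp2 the most distant, at rank 18555. Likeness of this kind describes 10 arrays and includes the difference between the groups.

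Among 23 measured genes listed as inducers of metalloproteinases or as receptors 9 rose and 2 fell, against 3.56% and 1.1% of all genes. The median change was 0.11 on the log2 scale. The list is mixed, as Il10 dampens macrophages, so the count is not one of inducers alone. The 9 were 6 ligands (Il1a, Il1b, Il6, Il10, Tnf and Lif) and 3 receptors (Tnfrsf1b, Osmr and Il17ra). The ligands Osm, Il11, Tgfb1 and Hbegf, also listed, differed by 0.47, 0.02, 0.02 and 0.11 and did not pass. Il1a averaged 7.76 ± 0.12 in CpG1826 tumors and 4.95 ± 0.24 in PBS tumors (SD, n = 5 each), and Il1b 10.32 ± 0.18 and 8.04 ± 0.34 in the same order. Il10, which dampens macrophages, gained 2.47 log2 units and Il6, a pleiotropic cytokine, 1.15. The Il6 probe was dim, with a mean of 4.40 over all tumors, below the lower quartile over all genes. Tnf was higher by 0.86, its receptor Tnfrsf1b by 1.05 and Osmr by 0.70, while the TGF-β receptors Tgfbr1 and Tgfbr2 fell by 0.53 and 0.56 on the log2 scale (named after their values were seen).

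Of 20 measured AP-1, ETS and C/EBP factors 9 rose and 0 fell, against 3.56% and 1.1% of all genes. The median log2 fold change was 0.26, and 7 to 9 rose in the fits that leave out 1 mouse. The 4 largest rises were those of Batf (2.01-fold, 95% confidence interval 1.54 to 2.62), Atf3 (1.94-fold, 1.42 to 2.66), Cebpb (1.90-fold, 1.53 to 2.36) and Ets2 (1.80-fold, 1.50 to 2.16). Batf is a leukocyte AP-1 partner, Atf3 a stress-induced member of the family, Cebpb a C/EBP factor and Ets2 an ETS factor. The Atf3 call was lost without PBS mouse 26 (limma adjusted p = 0.0582). Of the classical AP-1 subunits, Fos, Jun and Fosl1 did not pass (0.18 ± 0.14, -0.09 ± 0.09 and -0.12 ± 0.11, SE), while Junb, Jund and Fosl2 rose by 0.48, 0.39 and 0.38 on the log2 scale. Fosl2 no longer passed when CpG1826 mouse 50, 58, 183 or 595 or PBS mouse 29 or 592 was left out singly (limma adjusted p up to 0.0823).

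Among 10 measured genes of the plasminogen system, whose product plasmin opens proenzymes, 3 rose and 0 fell, against 3.56% and 1.1% of all genes. The 3 were an inhibitor, a coagulation cofactor and a receptor, and none of them is a protease. Serpinb2, an inhibitor of plasminogen activators, averaged 7.45 ± 0.44 in CpG1826 tumors and 5.66 ± 0.73 in PBS tumors (SD, n = 5 each; 3.47-fold, 95% confidence interval 2.22 to 5.44, limma adjusted p = 0.00291). F3, tissue factor, rose 1.68-fold (1.36 to 2.07), and Plaur, the urokinase receptor, 1.26-fold (1.13 to 1.41). The Plaur call was lost without PBS mouse 661 (limma adjusted p = 0.0528). The proteases Plau (urokinase) and Plat (tissue plasminogen activator) and the zymogen Plg differed by -0.12 ± 0.09, 0.08 ± 0.09 and 0.04 ± 0.10 (SE) and did not pass.

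Of 16 other secreted and lysosomal proteases 1 rose and 0 fell, against 3.56% and 1.1% of all genes. A single call in a list this short is not read as a result about the list. Furin, the convertase that activates proMmp14 inside the cell, was 1.52-fold higher (1.33 to 1.73, limma adjusted p = 0.00104). The neutrophil serine proteases Elane, Prtn3 and Ctsg did not pass (-0.03, 0.07 and 0.26), and Ctsg was a dim probe below the lower quartile over all genes. Among 15 ADAM and ADAMTS proteases 2 rose and 0 fell, against the same shares of all genes. They were the leukocyte sheddase Adam8 (1.61-fold, 1.44 to 1.80) and the aggrecanase Adamts4 (1.40-fold, 1.21 to 1.61). Of 7 further inhibitors Timp3 alone rose and 0 fell, against the same shares, and Reck, a membrane-anchored inhibitor, differed by -0.13 ± 0.07.

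Matrix genes, which encode the substrates, did not pass. Of 25 measured collagens, laminins, proteoglycans and glycoproteins 0 rose and 0 fell in the limma test, against 3.56% and 1.1% of all genes. The median log2 fold change was 0.00, and at an unadjusted p under 0.05 there were 1 higher and 5 lower. With such shares, a count of 0 in a list of this length is not read as a result about the list. Without CpG1826 mouse 50 the number higher was 1, and without PBS mouse 29 the number lower was 1. Fn1 and Dcn, the most highly valued of the list, differed by 0.01 ± 0.07 and 0.09 ± 0.08 (SE). Of 11 reported partners of MMP9 or TIMP1 3 rose and 0 fell, against 3.56% and 1.1% of all genes. Lcn2, which forms a complex with MMP9 in human neutrophils, rose 18.0-fold (12.6 to 25.8), and Thbs1, thrombospondin 1, rose 1.51-fold (1.27 to 1.80). Ndrg1, also on that list, rose 1.79-fold (1.59 to 2.03) and is known as a gene responsive to hypoxia rather than as a binding partner. The other 8, among them the TIMP1 receptor Cd63, did not pass.

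Markers of other cell types were read in the same way. Of 17 measured keratinocyte markers 13 rose and 0 fell, against 3.56% and 1.1% of all genes, with a median log2 fold change of 2.05. The summed log2 value of the list was 116.7 to 132.9 in CpG1826 tumors and 88.9 to 97.8 in PBS tumors. The mean of the list was highest in CpG1826 mice 189 (7.82) and 50 (7.51), which also had the highest Mmp12 values. Mouse 189 had the highest Mmp10 value as well. Of the CpG1826 tumors, mouse 183 had the lowest mean of the list (6.87). It had the highest Mmp13 and Mmp19 of them and the lowest Mmp10 and Mmp12. The part of skin content in the metalloproteinase results was not tested. Of 9 endothelial markers 0 rose and 1 fell, and of 9 T and NK cell markers 1 rose and 0 fell, against the same shares of all genes. Single calls like these are not read as a result about a cell type. Of 7 mast cell markers 0 rose and 0 fell in the limma test, against the same shares (1 higher and 0 lower at an unadjusted p under 0.05). The endothelial gene that fell was Tek, the angiopoietin receptor (-0.34), whose call was kept without PBS mouse 29 or 592 and lost without any other mouse.

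Of 10 markers of epithelium, by which a colon carcinoma would be recognised, 2 rose, Cdh1 (0.63) and Epcam (0.32), and 0 fell. The shares over all genes were 3.56% and 1.1%. Keratinocyte markers also rose in the CpG1826 tumors, and the part of skin content in the Cdh1 and Epcam rises was not tested. The Epcam call was kept without PBS mouse 26 or CpG1826 mouse 183 and lost without any other mouse (limma adjusted p = 0.0283 to 0.126). Krt8 and Krt18, keratins of simple epithelium, averaged 7.05 ± 0.17 and 5.31 ± 0.21 in CpG1826 tumors and 6.93 ± 0.21 and 5.42 ± 0.19 in PBS tumors (SD, n = 5 each). Cdx2 and Krt20, markers of intestinal epithelium, averaged 5.60 and 4.35 in CpG1826 tumors and 5.58 and 4.32 in PBS tumors, and did not pass.

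**Figure D5:**
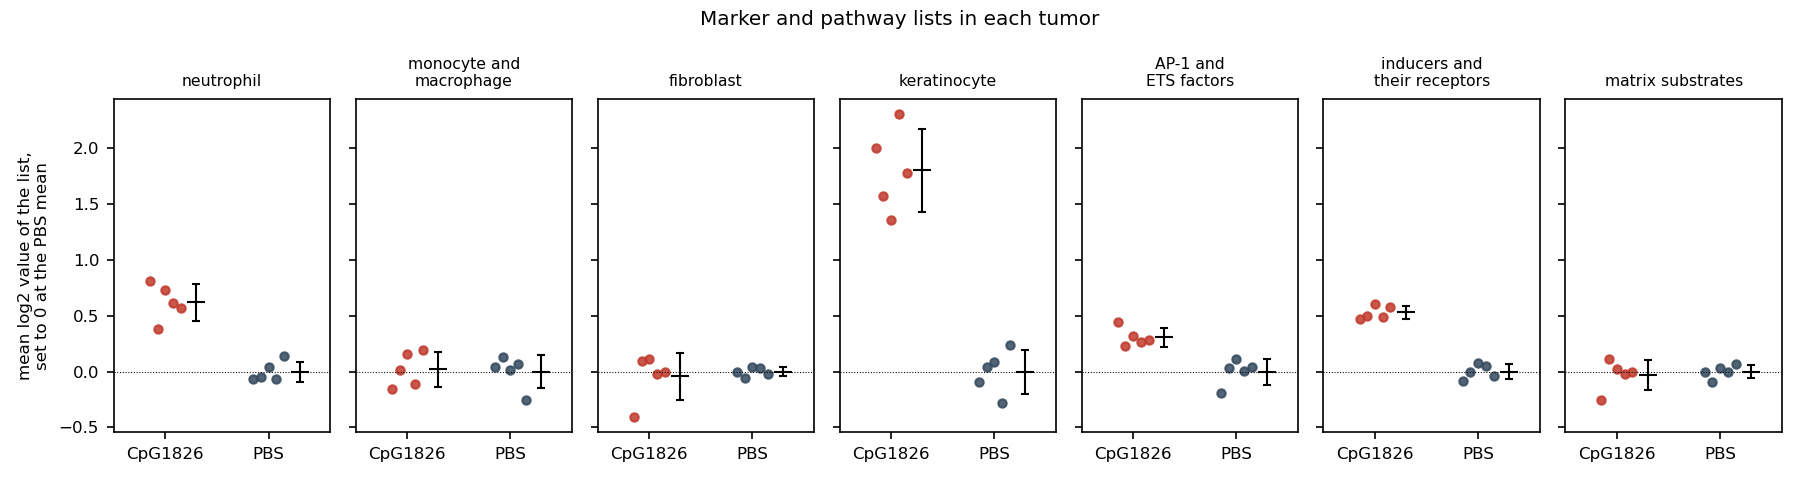
Mean log2 value of the measured genes of 7 lists in each tumor (vertical axis, set to 0 at the mean of the PBS tumors), with CpG1826 tumors in red, PBS tumors in dark blue and the mean ± SD beside each group (n = 5). The CpG1826 points lie above all PBS points for the neutrophil, keratinocyte, inducer and AP-1 and ETS lists, and overlap with them for the macrophage, fibroblast and matrix lists.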

How the data were processed

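RNA of 10 tumors was hybridised to whole-transcript arrays (Affymetrix labelling kit, per the labels' protocols). The deposited table holds log2 values, the log base being read from their range of 2.03 to 14.70. R 2.7.1 and limma appear, with no role, in the submitters' processing notes. The sources used here do not state background correction, summarization or normalization. Array medians lay between 6.47 and 6.53. A shift common to most genes would not show in distributions this alike, and dim probes can understate fold changes.

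Of 35512 probes 21789 carried exactly 1 gene symbol in the platform annotation, for 19938 genes. Genes were tested with limma 3.58.1 in R 4.3.3 (lmFit, eBayes, two-sided, Benjamini-Hochberg over all genes, threshold 0.05), without a filter, and the fit was tested on simulated data. Role pairs used an exact permutation test in SciPy 1.17.1. No mouse number occurs in both groups and no batch was labelled. Precision is limited by the number of arrays.

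Members, pairs and lists were chosen with earlier results of these data known. Named were all members, called Mmp and Timp genes and the 3 of the rest with the highest values, up to 4 called members of each list (or the 2 with the highest values), the 5 nearest profiles of Mmp13 and Timp1, and neighbours of the Mmp cluster. Other genes were named after their values were seen. List genes without a probe of their own were not analysed here.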

Additional observations from a re-analysis of the deposited data

Results flagged for a closer look

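A tumor was singled out where it lay far from the other 4 of its group by Dixon's criterion (gap over range above 0.71), which chance meets in about 1 of 20 groups. Of 212 groups examined for 106 named genes 16 met it.

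Among the metalloproteinases, CpG1826 mouse 50 had the lowest Mmp14 value of its group, 12.09, where the others had 12.33 to 12.40. CpG1826 mouse 189 had 5.23 for Mmp7, where the others had 4.91 to 4.99. PBS mouse 661 stood above its group for both gelatinases, with 9.97 for Mmp9 (others 9.43 to 9.54) and 11.09 for Mmp2 (others 10.56 to 10.70), and also for their substrate Fn1, with 12.65 (others 12.48 to 12.51). PBS mouse 482 had 3.99 for Mmp1a, where the others had 3.43 to 3.52.

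PBS mouse 26 was low for Cebpb, at 7.70 (others 8.51 to 8.58), Ets2, at 7.80 (others 8.24 to 8.37), and F3, at 6.42 (others 6.97 to 7.10). CpG1826 mouse 50 was high for Atf3, at 9.75 (others 8.65 to 8.93), F3, at 8.08 (others 7.49 to 7.63), Jund, at 9.11 (others 8.77 to 8.83), and S100a9, at 8.01 (others 7.02 to 7.26). In CpG1826 mouse 58 Cebpb was low, at 9.11 (others 9.32 to 9.36). CpG1826 mouse 183 had 11.34 for Tnfrsf1b (others 10.70 to 10.78), and CpG1826 mouse 189 had 5.42 for Mpo (others 5.11 to 5.19).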

How the results depend on the processing

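The alternatives were median centring, quantile normalization, a trended and robust prior, a filter on genes below the lower quartile, averaging a gene's probes, testing every probe, an adjusted p under 0.01 and leaving out each mouse. The 10 genes kept direction and side of the threshold in 168 values under these alternatives, and Mmp12 newly passed in 1, without PBS mouse 26. Some of the 168 were fixed in direction beforehand. Each of the 10 had 1 probe, so averaging probes, testing every probe and the stricter threshold could not change their log2 fold changes. Of the 10 genes 6 to 7 rose and 0 fell in the fits without 1 mouse. The filter left 14953 genes and removed Mmp8 and 7 further family genes, so 5 rose there. Of the further family genes 1 to 2 rose without 1 mouse and 1 at an adjusted p under 0.01. Mmp13 minus Mmp8 ranged from 0.37 to 0.55 without 1 mouse. At an adjusted p under 0.01, 5 of the AP-1 and ETS factors rose, against 9, and 1 inducer or receptor fell, against 2. Among values of all named genes 1727 were the same, 59 no longer passed, 1 newly passed and 0 changed sign where called. No paired analysis was possible because no mouse number occurs in both groups. Dim probes such as Mmp8, Mmp1a and Mmp1b lie near the lower end of the arrays, which limits what they can show.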
